A study of Mus musculus with 8 samples.

Results

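Metabotropic glutamate receptors are G-protein-coupled receptors that sense glutamate outside the ion channel families, and they work as dimers. Receptors of group I, here Grm5, couple to Gq and phospholipase C and sit mainly on the postsynaptic side. Receptors of group II, Grm2 and Grm3, and of group III, Grm4, Grm7 and Grm8, couple to Gi and Go, lower cAMP and restrain transmitter release. The genes were chosen by symbol, with earlier results of these data known. Of 55471 genes in the exonic table and 18513 in the second table, 6 are described. The pattern of Grm with a digit fits 8 symbols, and the other 2 are not analysed here.

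The values came from nuclear polyadenylated RNA of forebrain excitatory neurons of male C57BL/6J mice, 6 to 8 weeks old. All mice, controls included, carried CaMKIIalpha-Cre and SUN1-sfGFP. The Cre switches on a green fluorescent tag of the nuclear envelope, by which nuclei were pulled from homogenised forebrain, so the sampled cells are set by where the CaMKIIalpha promoter drives Cre. Both groups received 1 mg/kg of scopolamine methyl nitrate, which blocks muscarinic receptors outside the brain, and a second injection 30 min later. That injection was pilocarpine hydrochloride at 340 mg/kg in the Pilo group, 4 samples, and saline in the Mock group, also 4 samples. Seizures ran for 100 min in the Pilo mice, of which those scoring 3 to 5 on the Racine seizure scale were kept. Every Pilo sample had both drug and seizures, which therefore cannot be told apart. Whether every sample came from its own mouse is not in the labels, so the p-values cover only sample-to-sample spread, part of which may be technical.

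Libraries held between 29356788 and 36161448 counts in the exonic table. The second table gave exonic and intronic counts separately, with 11928054 to 16703475 intronic counts per library. In both groups the library numbered 2 in one table correlated over genes with number 3 of the other, and the reverse, so a replicate number below belongs to the table its value is from. Induction in Pilo was present: Fos, an immediate early gene, stood at 8.29 to 29.2 CPM (counts scaled to library size) in Mock and at 112 to 186 CPM in Pilo, and Arc at 70.9 to 244 and 500.1 to 633 CPM. None of the 8 excitatory neuron markers was at 0, and their summed level was 2590 to 3236 CPM in Mock and 2950 to 3500 CPM in Pilo. Of these 8, 4 were called higher and 1, Emx1, lower (edgeR adjusted p under 0.05), where 31.8% of all genes tested were called. Markers of other cells were also present, and some of them moved as well. The 9 inhibitory neuron markers summed to 131 to 169 CPM in Mock and 168 to 266 CPM in Pilo, with a median log2 fold change of 0.43. Of these, 2 were called higher, Gad1 at 0.46 (SE 0.15) and Gad2 at 0.43 (SE 0.14), and 6 of the 9 had an unadjusted p under 0.05. The 6 microglia markers summed to 12.3 to 18.8 CPM in Mock and 14.2 to 22.5 CPM in Pilo. The part of these cells in the receptor values was not tested.

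All 6 genes were expressed in these nuclei. To compare genes, exonic CPM was divided by the length of each gene's merged exons, which covers all annotated isoforms and so understates a gene whose long isoforms are rare. In Mock the highest level was that of Grm5, at 28.2 ± 3.73 CPM per kb (SD, n = 4). Grm2 followed at 16.7 ± 1.22 and Grm7 at 15.5 ± 1.28 CPM per kb (SD, n = 4 each), and the ranges of these neighbours overlapped. Grm4 stood at 5.22 ± 0.639 and Grm3 at 4.18 ± 0.940 CPM per kb (SD, n = 4 each), again with overlapping ranges. Grm8 was lowest, at 1.15 ± 0.191 CPM per kb (SD, n = 4). In Pilo the order of Grm2 and Grm7 turned: Grm7 was at 12.7 to 15.9 and Grm2 at 10.6 to 11.6 CPM per kb, with no overlap. The share of Grm2 in the summed level of the 6 genes was 23.6% ± 1.99 in Mock and 16.7% ± 0.737 in Pilo (SD, n = 4 each). Grm5 made up 39.6% ± 2.28 and 44.5% ± 2.57 of that sum (SD, n = 4 each).

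**Figure D1:**
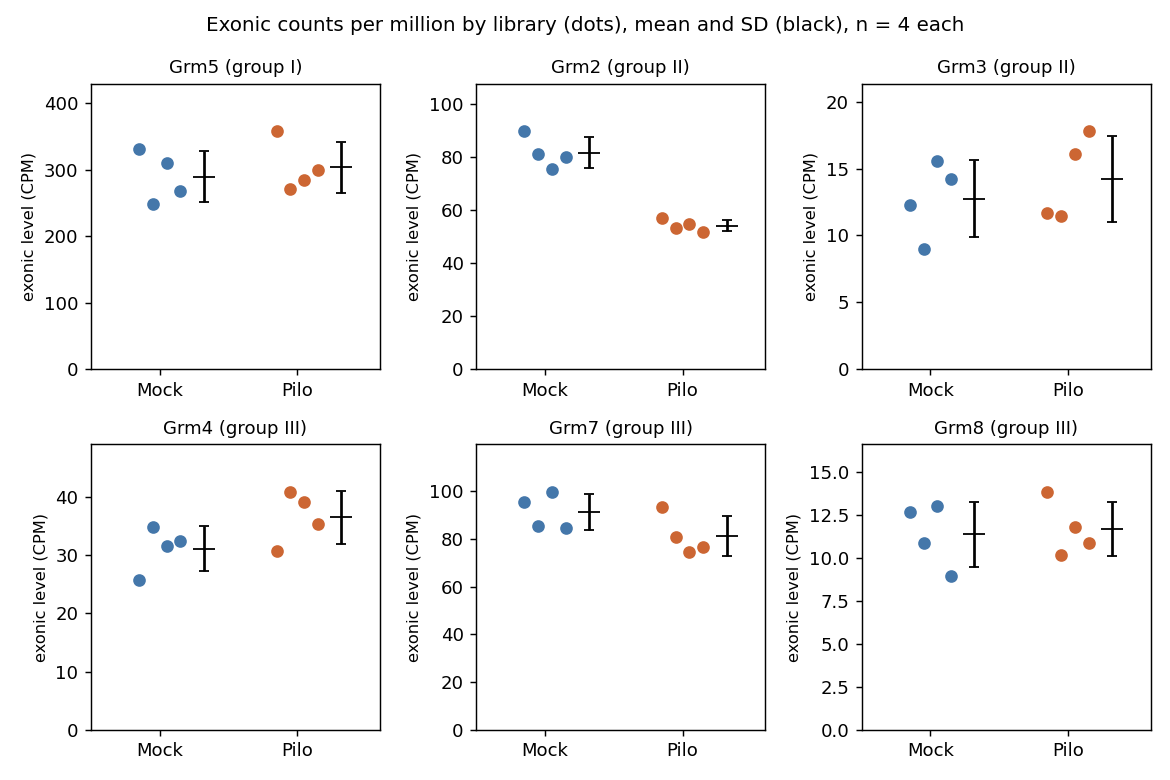
Exonic level in CPM (vertical axes, from 0) of each receptor gene in every Mock and Pilo library (dots), with the mean and SD in black. The Pilo libraries of Grm2 lie at 51.8 to 57.0 CPM, all under the Mock libraries at 75.6 to 89.9 CPM, while the groups overlap for the other 5 genes.

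Exonic and intronic reads of these genes gave different pictures. In exons 1 of the 6 genes, Grm2, was lower in Pilo and 0 were higher (edgeR adjusted p under 0.05), where 31.8% of the 19176 genes tested were called, 15.6% higher and 16.2% lower. These exonic counts were also 1 and 0 at an unadjusted p under 0.05, in DESeq2 and in limma-voom. In the fit with a replicate block, and likewise without Pilo replicate 1, they were 2 lower (Grm2 and Grm7) and 1 higher (Grm4). The block also called more of all genes in both directions, with 4572 higher, or 50.7% of its exonic calls. The share of the 6 receptor genes that the block called in exons was near its share of all genes. In introns, which are mostly unspliced transcript, both group II genes were lower and all 3 group III genes were higher. The intronic background was high too, with 41.4% of 13318 genes called, 19.6% higher and 21.9% lower. How many of all genes had Mock and Pilo libraries without overlap was not counted, in exons, introns or intronic share. Intronic CPM is relative to the intronic reads of a library, and introns took 31.9 to 33.7% of the reads of both regions in Mock but 29.2 to 30.6% in Pilo. Scaled to the reads of both regions instead, the median change of all genes in introns moved from -0.00 to -0.15 on the log2 scale, and the higher share of the calls went from 47.3% to 28.3%. On that scale the 6 genes kept their intronic directions, but of the group III genes only Grm8 still passed the test.

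**Figure D2:**
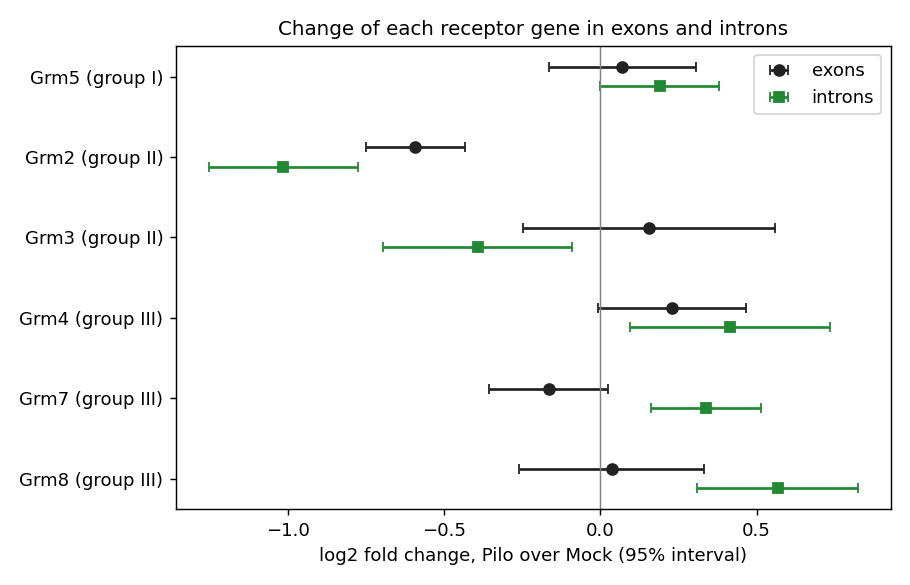
Log2 fold change of Pilo over Mock (horizontal axis) of each receptor gene in exons (black circles) and introns (green squares), with 95% intervals from the edgeR fit. Grm2 lies left of 0 in both regions, Grm3 left of 0 in introns only, and the intervals of Grm4, Grm7 and Grm8 lie right of 0 in introns but include 0 in exons.

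Upstream regions of 3 genes are shown because they belong to the group II genes, whose introns were lower, and to Grm8, the group III gene with the largest intronic rise. Each is the 250 bases before the start of a RefSeq transcript on GRCm38.p6, 5′ to 3′ on the gene's strand. The sequences are from RefSeq, and windows of 4 of the 6 genes, Grm2, Grm3, Grm7 and Grm8, were matched by symbol. The Grm2 window is chr9:106656110-106656359, the Grm3 window chr5:9725353-9725602 and the Grm8 window, the most upstream of 3, chr6:28135147-28135396, all on the minus strand.
Grm2: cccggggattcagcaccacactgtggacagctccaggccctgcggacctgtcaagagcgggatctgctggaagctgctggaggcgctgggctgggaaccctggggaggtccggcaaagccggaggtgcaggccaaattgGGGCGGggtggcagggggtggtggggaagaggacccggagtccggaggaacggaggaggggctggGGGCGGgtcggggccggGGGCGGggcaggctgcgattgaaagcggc
Grm3: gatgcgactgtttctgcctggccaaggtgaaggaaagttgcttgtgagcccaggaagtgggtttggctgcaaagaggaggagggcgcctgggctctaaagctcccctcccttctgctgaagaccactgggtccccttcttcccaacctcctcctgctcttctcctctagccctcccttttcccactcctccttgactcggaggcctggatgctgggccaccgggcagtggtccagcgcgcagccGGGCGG
Grm8: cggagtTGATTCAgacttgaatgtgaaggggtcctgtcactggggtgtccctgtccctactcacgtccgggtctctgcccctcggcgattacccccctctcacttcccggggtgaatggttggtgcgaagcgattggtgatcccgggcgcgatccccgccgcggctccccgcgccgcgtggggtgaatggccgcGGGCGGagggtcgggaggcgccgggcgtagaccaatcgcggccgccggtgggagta
Capitals mark matches, on either strand, to any of 5 motifs: the cAMP response element (CRE) TGACGTCA, its shorter core TGACG, the AP-1 motif TGANTCA, the Egr motif GCGNGGGCG and the GC box GGGCGG. The shorter core lies within the CRE, and the Egr motif can overlap the GC box. The Grm2 window held 3 GC boxes and the other windows shown 1 each, a motif present in 32.7% of 32851 promoter windows of this length. The Grm8 window also held 1 AP-1 match, 244 bases before the start, found in 6.75% of windows. No CRE, shorter core or Egr match was in the windows shown, while a window further into Grm8, not shown, held 1 shorter core 24 bases before its start, and these motifs were in 1.55%, 17.8% and 4.70% of windows. GC content was 71.2% for Grm2, 62.4% for Grm3 and 68.4% for Grm8.

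Grm2 encodes a presynaptic autoreceptor known for its strong expression in dentate granule cells. The gene (ENSMUSG00000023192, GRCm38 chromosome 9, 106643095 to 106656082, minus strand) is the shortest of the 6, at 12.99 kb. Its exonic levels in Mock replicates 1 to 4 were 89.9, 81.3, 75.6 and 80.1 CPM, and in Pilo replicates 1 to 4 they were 57.0, 53.3, 54.7 and 51.8 CPM. Every Pilo library was below every Mock library. The exonic log2 fold change was -0.59 (SE 0.07, 95% interval -0.75 to -0.43, adjusted p = 6.89e-05), or 0.663 times the Mock level. In a bulk sample fewer cells of a type and less RNA per cell cannot be told apart.

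The introns of Grm2 showed the same direction with a larger change. Intronic levels in Mock were 74.6, 63.6, 67.3 and 63.4 CPM, and in Pilo 39.0, 31.0, 31.7 and 31.3 CPM. The groups did not overlap, and Pilo replicate 1 was the highest of its group. The intronic log2 fold change was -1.01 (SE 0.11, adjusted p = 8.58e-06), or 0.495 times the Mock level. The exonic fall was smaller than the intronic one by 0.40 on the log2 scale (SE 0.07, adjusted p = 0.00189), a test made within samples, where 26.2% of 13047 genes were called. The intronic share of the gene's counts was 26.8 to 27.8% in Mock and 17.4 to 21.5% in Pilo. For whole libraries that share was 31.9 to 33.7% in Mock and 29.2 to 30.6% in Pilo.

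The 6 markers of dentate granule cells, a cell type rich in Grm2, summed to 37.9 to 46.1 CPM in Mock and 41.8 to 48.9 CPM in Pilo. Of these markers 1, Plekha2, rose, at 0.36 (SE 0.11), and 0 fell by edgeR's test, while 2 of the 6 had an unadjusted p under 0.05. The list's median log2 fold change was -0.11, and the values below 0 that did not pass were -0.45 (SE 0.24) for Dsp, -0.48 (SE 0.36) for Tdo2 and -0.27 (SE 0.16) for C1ql2. Those above 0 that did not pass were 0.29 (SE 0.12) for Prox1 and 0.06 (SE 0.19) for Lct. The genes whose exonic levels followed those of Grm2 most closely over the 8 libraries, among 14666 genes of mean count 50 or more, were Ift20 (Pearson r = 0.998), Pigp (r = 0.996) and Arhgef18 (r = 0.995). Each of them was lower in Pilo, by log2 fold changes of -0.49, -0.51 and -0.54. Genes picked for likeness over both groups largely share the group difference of Grm2 by that choice. How far the likeness holds within each group was not tested. An antisense gene, Gm28111, overlaps 470 exonic bases of Grm2, but it had at most 5 counts in any library.

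Grm3, the other group II gene, is found on neurons and on astrocytes. It spans 240 kb (ENSMUSG00000003974, chromosome 5, 9485541 to 9725170, minus strand). Its exonic levels were 12.2, 8.97, 15.6 and 14.2 CPM in Mock and 11.6, 11.4, 16.1 and 17.8 CPM in Pilo. The groups overlapped, and the log2 fold change of 0.16 (SE 0.19, 95% interval -0.25 to 0.56, adjusted p = 0.569) leaves room for a change in either direction. Intronic levels were 107, 98.6, 83.4 and 114 CPM in Mock and 57.1, 89.9, 70.1 and 89.6 CPM in Pilo. Mock replicate 3 lay below Pilo replicates 2 and 4, so these groups overlapped as well, while Pilo was the lower sample in 4 of 4 same-numbered pairs.

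The intronic log2 fold change of Grm3 was -0.39 (SE 0.14, adjusted p = 0.0369). Leaving out any one of Mock replicates 1, 2 and 4 and Pilo replicates 1 and 3 ended this call, at adjusted p from 0.0627 to 0.102, and the value was -0.27 without Pilo replicate 1. Exons and introns of Grm3 moved apart by 0.54 on the log2 scale (SE 0.12, adjusted p = 0.00522). This difference passed in 13 of 13 alternative fits. The intronic share was 80.2, 74.3, 80.6 and 79.5% in Mock and 66.2, 67.7, 71.7 and 66.7% in Pilo, with no overlap. Whole libraries also had a lower intronic share in Pilo without overlap, as given above. Over exons and introns together the change of Grm3 was -0.34 (adjusted p = 0.0869).

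Astrocyte transcripts were measured beside Grm3, because astrocytes express it. Of the 7 astrocyte markers, all detected, the summed level was 758 to 1120 CPM in Mock and 908 to 1360 CPM in Pilo. Most of that sum was Slc1a2, at means of 766 CPM in Mock and 952 CPM in Pilo. Of these 7 markers 0 passed the edgeR test in either direction, with 1 at an unadjusted p under 0.05, 1 called by DESeq2, 0 called by limma-voom and a median log2 fold change of 0.32. Of 5 markers of oligodendrocyte precursors, which also hold Grm3, 1, Olig2, rose by 0.81 (SE 0.25) in the edgeR test, with sums of 30.0 to 57.4 CPM in Mock and 31.9 to 75.6 CPM in Pilo. DESeq2 called 2 of these 5, limma-voom 0, and 2 had an unadjusted p under 0.05. The part of these cells in the Grm3 values was not tested. The ratio of Grm2 to Grm3, both in exonic CPM per kb, was 4.19 ± 1.17 in Mock and 2.47 ± 0.598 in Pilo (SD, n = 4 each). Mock ratios ran from 3.03 to 5.65 and Pilo ratios from 1.81 to 3.04, so the groups met at their edges.

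**Figure D3:**
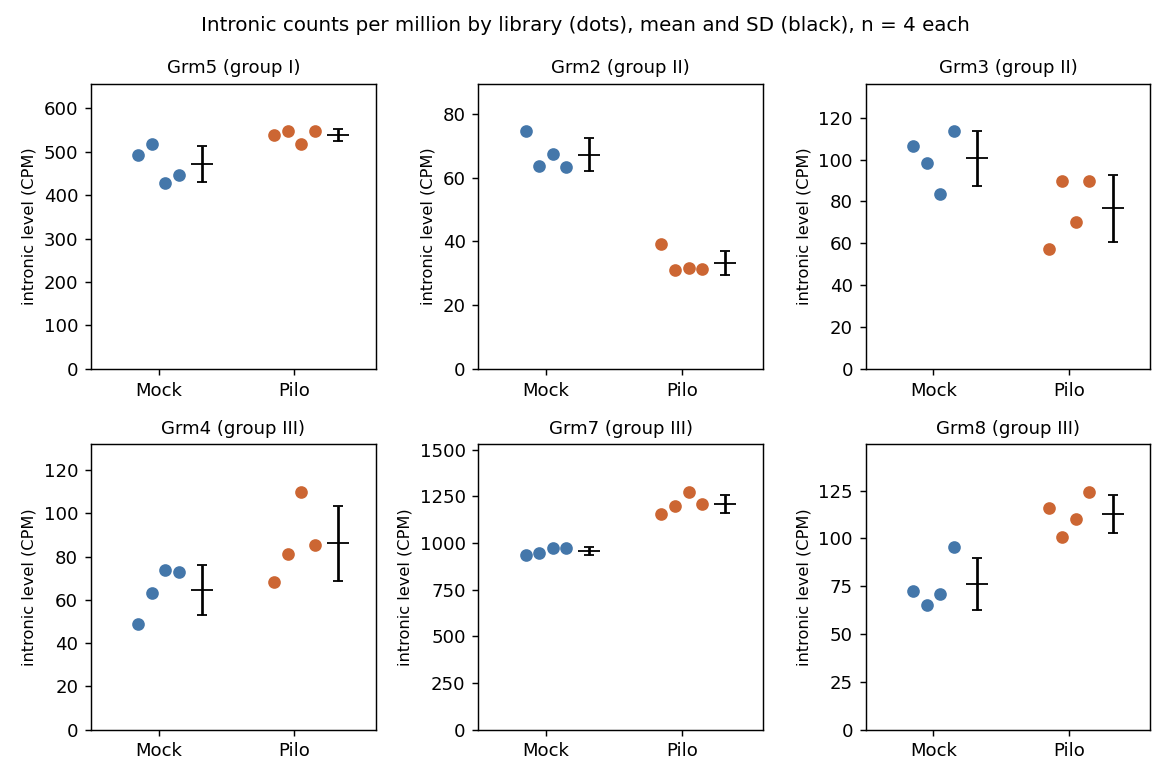
Intronic level in CPM of intronic reads (vertical axes, from 0) of each receptor gene in every Mock and Pilo library (dots), with the mean and SD in black. Grm2 is lower and Grm5, Grm7 and Grm8 are higher in every Pilo library than in every Mock library, while the groups overlap for Grm3 and Grm4. How many of all genes separate in this way was not counted.

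Grm8, a presynaptic group III receptor with high affinity for glutamate, had the largest intronic rise of the 6 genes. The gene (ENSMUSG00000024211, chromosome 6, 27275119 to 28135178, minus strand) spans 860 kb. Intronic levels were 72.4, 65.3, 71.1 and 95.7 CPM in Mock and 116, 101, 110 and 124 CPM in Pilo. Mock replicate 4 was the highest of its group but still below every Pilo library. The intronic log2 fold change was 0.57 (SE 0.12, adjusted p = 0.00166), and 0.42 (adjusted p = 0.0196) when scaled to both regions. Its exonic levels were 12.7, 10.9, 13.02 and 8.92 CPM in Mock and 13.8, 10.2, 11.8 and 10.9 CPM in Pilo, overlapping, and their log2 fold change was 0.04 (SE 0.14, 95% interval -0.26 to 0.33). The difference of exons from introns was -0.57 (SE 0.20, adjusted p = 0.0605), and it passed when replicate number entered as a block (adjusted p = 0.000247) and without Mock replicate 4 (-0.79, adjusted p = 0.00121), and was -0.32 (adjusted p = 0.234) with 1 scaling for both regions. Over both regions together Grm8 rose by 0.35 (adjusted p = 0.0136).

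Grm7 encodes a group III receptor of low glutamate affinity placed in the presynaptic active zone. At 922 kb it is the longest of the 6 genes (ENSMUSG00000056755, chromosome 6, 110645581 to 111567230, plus strand), and 81.2 to 86.7% of its counts were intronic. Intronic levels were 934, 946, 974 and 973 CPM in Mock and 1155, 1197, 1274 and 1211 CPM in Pilo, with no overlap. The intronic log2 fold change was 0.34 (SE 0.08, adjusted p = 0.00435), and 0.19 (adjusted p = 0.0996) when scaled to both regions.

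Exonic levels of Grm7 went the other way in value. They were 95.6, 85.4, 99.7 and 84.5 CPM in Mock and 93.4, 81.0, 74.7 and 76.6 CPM in Pilo, so the ranges overlapped while Pilo was lower in 4 of 4 pairs. The exonic log2 fold change was -0.17 (SE 0.09, adjusted p = 0.174), which passed once replicates were blocked by number (adjusted p = 0.0342) and without Pilo replicate 1 (-0.24, adjusted p = 0.0414). Exons and introns of Grm7 differed by -0.53 (SE 0.09, adjusted p = 0.00135), and by -0.28 (adjusted p = 0.0357) with 1 scaling for both regions. Over both regions together the change was 0.15 (adjusted p = 0.117). The antisense gene Gm20387 shares 130 exonic bases with Grm7 and had 79 to 184 counts per library, and its own log2 fold change was -0.47 (SE 0.21, adjusted p = 0.10). Gm20386, a processed pseudogene on the same strand inside Grm7, had 4 to 43 counts and rose by 1.26 (SE 0.44, adjusted p = 0.0406).

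Grm4, the remaining group III gene, is best known from cerebellar granule cells and spans 99.0 kb (ENSMUSG00000063239, chromosome 17, 27422387 to 27521403, minus strand). Intronic levels were 48.9, 63.3, 73.6 and 72.9 CPM in Mock and 68.1, 81.4, 110 and 85.2 CPM in Pilo. Pilo replicate 1 lay below Mock replicates 3 and 4, and Pilo was higher in 4 of 4 pairs. The intronic log2 fold change was 0.41 (SE 0.15, adjusted p = 0.0378). That call ended when any one of Mock replicates 1 and 2 and Pilo replicates 2, 3 and 4 was left out, at adjusted p from 0.0517 to 0.147, and when scaled to both regions (0.27, adjusted p = 0.177). Without Pilo replicate 3 the value was 0.27.

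In exons Grm4 stood at 25.8, 34.9, 31.6 and 32.4 CPM in Mock and at 30.7, 40.9, 39.2 and 35.4 CPM in Pilo. The log2 fold change was 0.23 (SE 0.11, adjusted p = 0.132), with Pilo higher in 4 of 4 pairs. It passed in the blocked fit (adjusted p = 0.00579) and without Pilo replicate 1 (0.31, adjusted p = 0.0402). The exonic change of Grm4 minus the intronic one was -0.21 (SE 0.09, adjusted p = 0.107). It passed with the block (adjusted p = 0.0216) and without Pilo replicate 2 (-0.29, adjusted p = 0.0390), and with 1 scaling for both regions it was 0.04 (adjusted p = 0.793). Of 5 markers of cerebellar granule cells 3 stayed under 1 CPM in every library, and 1, the transcription factor gene Neurod1, fell by 0.66 on the log2 scale (SE 0.09, adjusted p = 0.00014). The list summed to 58.5 to 69.5 CPM in Mock and 60.2 to 65.0 CPM in Pilo. Nearly all of that sum was Etv1, at means of 46.7 CPM in Mock and 49.3 CPM in Pilo, and Neurod1, at 17.8 and 11.2 CPM.

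Grm5, the group I gene described and the main postsynaptic receptor of this family in the forebrain, had the highest exonic level. It spans 551 kb (ENSMUSG00000049583, chromosome 7, 87584168 to 88134907, plus strand). Exonic levels were 332, 248, 310 and 268 CPM in Mock and 358, 272, 285 and 300.4 CPM in Pilo, and the groups overlapped throughout. The log2 fold change of 0.07 had a 95% interval of -0.16 to 0.31 (SE 0.11, adjusted p = 0.671). Intronic levels were 493, 517, 429 and 447 CPM in Mock and 539, 547, 518 and 547 CPM in Pilo. The groups did not overlap, although Mock replicate 2 nearly reached Pilo replicate 3.

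The intronic log2 fold change of Grm5 was 0.19 (SE 0.09, adjusted p = 0.102). It passed in the blocked fit (adjusted p = 0.00750) and in DESeq2 (0.21, adjusted p = 0.0399), and was 0.04 (adjusted p = 0.740) when scaled to both regions. Exons and introns of Grm5 differed by -0.15 (SE 0.08, adjusted p = 0.214). That difference passed with the block (adjusted p = 0.0194) and without Pilo replicate 1 (-0.23, adjusted p = 0.0281), and was 0.10 (adjusted p = 0.355) with 1 scaling for both regions. The intronic share was 40.8 to 44.6% in Mock and 37.5 to 44.1% in Pilo.

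**Figure D4:**
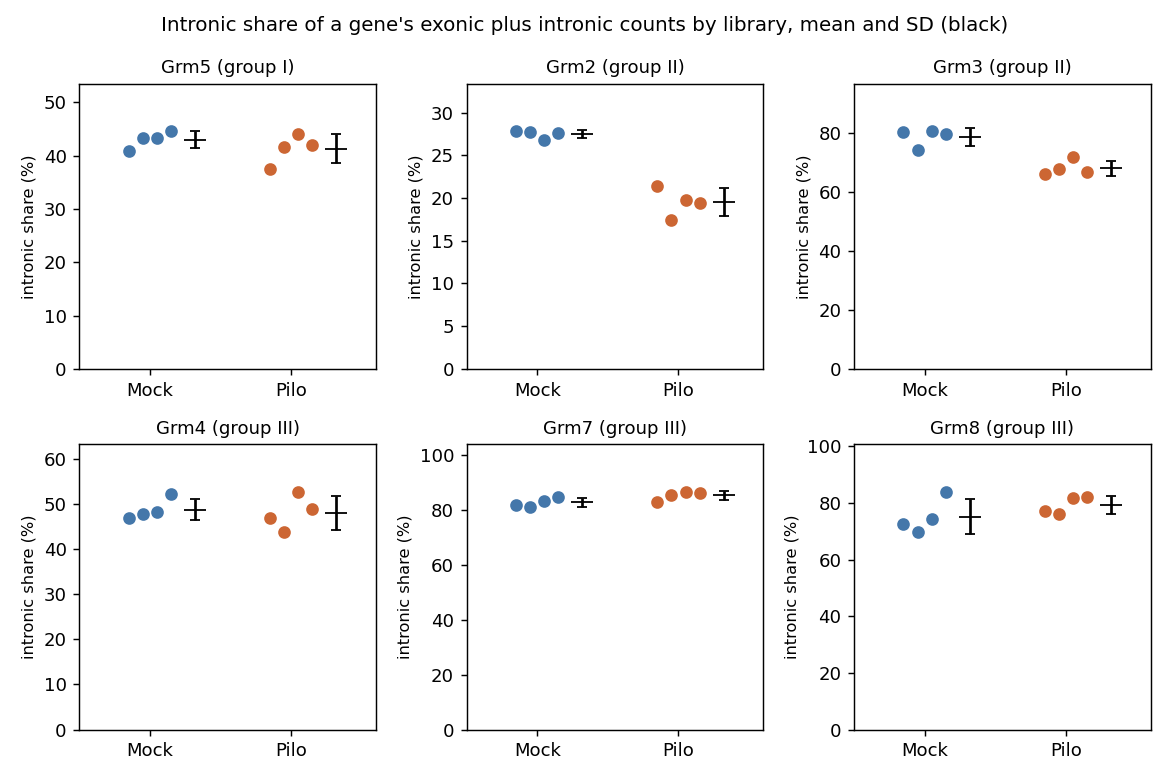
Intronic share, in percent, of the exonic plus intronic counts of each receptor gene (vertical axes, from 0) in every library (dots), with the mean and SD in black. Grm2 and Grm3 have a lower share in every Pilo library than in every Mock library, and the groups overlap for the other 4 genes. The share of whole libraries was also lower in Pilo, at 29.2 to 30.6% against 31.9 to 33.7% in Mock.

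Gene length differs widely among these genes and goes along with the intronic changes of all genes. Among 923 genes over 200 kb, the median intronic log2 fold change was 0.21, with 31.3% called higher and 3.03% called lower. Grm3, Grm5, Grm7 and Grm8 are in this class, and Grm3 was among its few genes called lower. Among 5857 genes of 20 to 100 kb, the class of Grm4, the median was -0.06 and 16.3% were higher. Grm4, at 99.0 kb, lies at the edge of the next class, 100 to 200 kb. The 1277 genes of that class had a median of 0.09, with 23.7% higher and 8.69% lower. Among 5260 genes under 20 kb, the class of Grm2, the median was -0.03 and 26.3% were lower. The part of gene length in the values of the 6 genes was not tested.

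Partners of the receptors were described from lists drawn up by their known roles, with earlier results of these data known. Their called shares are therefore a description and not a test. Of 24 genes for scaffolds and trafficking, 11 were higher and 1 was lower in exons, with a median log2 fold change of 0.21 against 0.01 over all genes tested. That is 50.0% called, against 31.8% of all genes, of which 15.6% were higher and 16.2% lower. The 19176 genes behind the 31.8% include many of low count. Among the 14666 genes of mean count 50 or more, a larger share of all genes was called. The list still had 11 higher and 1 lower of 24 there, so its gap to all genes was smaller. In introns 10 were higher and 1 lower, or 8 and 3 when scaled to both regions, and the share called was 45.8% against 41.4% of all genes. Homer1, which ties group I receptors to the postsynaptic density and whose short form loosens that link, rose from 117 ± 29.2 to 518 ± 51.3 CPM (SD, n = 4 each). The exonic log2 fold change of Homer1 was 2.15 (SE 0.16, adjusted p = 4.54e-06), and the intronic one 3.27. Grasp, which encodes the trafficking scaffold tamalin, rose by 0.80 (SE 0.12). Elfn2, a synaptic adhesion protein that binds group III receptors, rose by 0.53 (SE 0.10), and Ppp1cc, a phosphatase subunit that binds Grm7, by 0.45 (SE 0.08). The 1 lower gene was Homer2, at -0.27 (SE 0.08, adjusted p = 0.0271). Its call ended when any one of Mock replicates 1, 3 and 4 and Pilo replicates 2 and 4 was left out, at adjusted p from 0.0547 to 0.0976, and over both regions together (adjusted p = 0.0618).

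Of 26 genes that carry group I signals, 7 were higher and 1 was lower in exons, with a median of 0.14. Those higher include Arc, used above to show induction. The share called, 30.8%, was near the 31.8% of all genes. In introns 6 of 25 were higher and 2 lower, or 32% against 41.4% of all genes. Rgs2 and Rgs4, which speed up the switching off of Gq and other G proteins, rose by 1.25 (SE 0.08) and 0.84 (SE 0.08) in exons and by 2.28 and 1.65 in introns. Dagla, which makes an endocannabinoid downstream of phospholipase C, rose by 0.55 (SE 0.09), and Gnaq, the Gq alpha subunit itself, by 0.37 (SE 0.08). The lower gene was Eef2k, a kinase of the elongation factor that slows translation, at -0.36 (SE 0.09, adjusted p = 0.00746). With the replicate number as a block, 12 were higher and 2 lower in exons, and 12 higher and 2 lower in introns. The block also called more of all genes, in both regions and both directions. In exons 4572 of all 19176 genes were then higher, against 2994 without it. Of the blocked calls over all genes, 50.7% were higher in exons and 48.6% in introns. The blocked counts are therefore not comparable with the 31.8% and 41.4% called without the block. Against all genes in the blocked fit, the called share of this list was near theirs in introns and somewhat above it in exons. Without Pilo replicate 1 the exonic falls numbered 2, and without Mock replicate 2 the intronic falls numbered 1.

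Of 34 genes that carry group II and III signals, 11 were higher and 2 were lower in exons, with a median of 0.16. The share called was 38.2% against 31.8% of all genes. In introns 8 of 33 were higher and 4 lower, or 36.4% against 41.4% of all genes. Gnb5, a G beta subunit that pairs with a family of regulators of G-protein signalling, rose by 0.89 (SE 0.08). Adcy8, an adenylyl cyclase driven by calcium, rose by 0.68 (SE 0.09), Gng2, a G gamma subunit, by 0.48 (SE 0.07), and Gnai3, an inhibitory G alpha subunit, by 0.51 (SE 0.08). The 2 lower genes were Gnb4, a G beta subunit, at -0.51 (SE 0.10), and Kcnj9, a subunit of the potassium channels that G beta-gamma opens, at -0.27 (SE 0.07). With the block, 18 were higher and 4 lower in exons, and 13 higher and 6 lower in introns. As given above, the block also called more of all genes in both directions. Against all genes in that fit, the called share of this list was near theirs in introns and above it in exons. Without Pilo replicate 1 the exonic falls numbered 4. Homer2, Eef2k, Gnb4 and Kcnj9 were named after their values were seen.

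**Figure D5:**
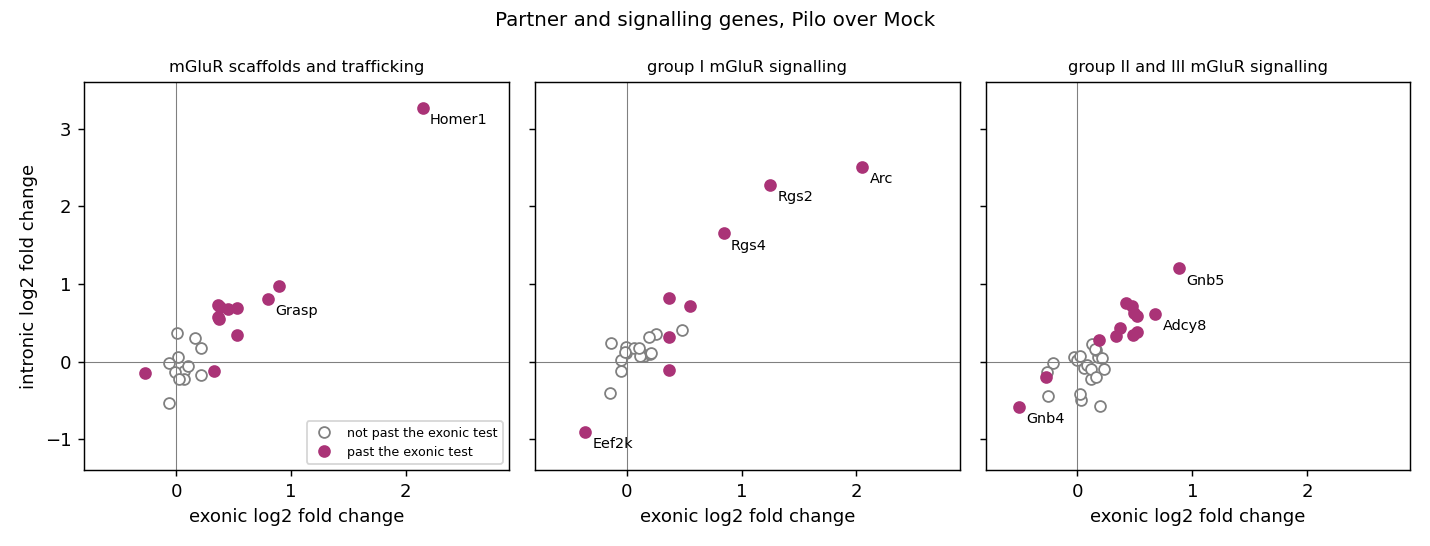
Exonic (horizontal axis) against intronic (vertical axis) log2 fold change, Pilo over Mock, of the partner and signalling genes in 3 lists, with 1 point per gene measured in both regions. Filled points passed the exonic test; Homer1, Rgs2, Rgs4 and Arc lie far up and to the right, and Gnb4 and Eef2k at the lower left.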

How the data were processed

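Nuclear polyadenylated RNA of 4 Mock and 4 Pilo samples was sequenced from directional libraries, and the values are gene counts that the authors deposited: an exonic table keyed by Ensembl gene, and a second table keyed by Entrez gene with exonic and intronic counts. Per the submitters' processing notes, Trimmomatic 0.39, STAR 2.7.1a, HTSeq 0.11.2, R 4.1.1, edgeR and mm10 were used, with no role given for each. The sources used here name no annotation release, no strand setting and no method for telling intronic from exonic reads. Every column was matched to a sample by its name, and 0 columns were left unmapped. The other 2 receptor genes are not reported here.

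The members and all gene lists were chosen with earlier results of these data known. Genes were tested with edgeR 4.0.16 (R 4.3.3; robust quasi-likelihood fit, TMM scaling, filterByExpr with a minimum count of 10), Benjamini-Hochberg adjustment over all genes tested and a threshold of 0.05. Every adjusted p is from this test unless another tool is named. Standard errors and 95% intervals come from the same fit. Exonic and intronic counts of the second table were compared by a region-by-treatment term with a term for each sample. CPM used TMM library sizes. Lengths, positions and overlaps came from GENCODE on GRCm38. In each partner list the 4 genes of smallest exonic p past the test were named.

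Alternatives were a replicate block, DESeq2 1.42.0 with its size factors, limma 3.58.1 (voom), RLE scaling, no filter on low counts, a mean count of at least 50, each sample left out, exonic plus intronic counts, and 2 scalings chosen after seeing the data. Replicate numbers paired the samples: deviations of same-numbered Mock and Pilo libraries from their group means correlated at 0.453 to 0.525 in exons and 0.343 to 0.529 in introns, each above the limit of 0.1. The fit without the block stayed the main one. Replicates of a group differed beyond sampling noise, so each was counted as 1. Scripts were tested on simulated data.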

Additional observations from a re-analysis of the deposited data

Results flagged for a closer look

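Among 24 sets of 4 libraries (6 genes, 2 groups, exonic and intronic levels), 1 held a library far from the rest: the intronic level of Grm2 in Pilo replicate 1, at 39.0 CPM where the others lay at 31.0 to 31.7 CPM. Chance marks about 1 such set in 20. Without this library the intronic log2 fold change of Grm2 was still past the threshold.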

How the results depend on the processing

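The direction and call of Grm2 held in all 15 alternatives in exons, all 15 in introns and all 13 of the difference between regions. With the replicate number as a block, the samples being paired, both rises and falls over all genes grew in number in every comparison. Exonic calls over all genes were 4572 higher, or 50.7% of the blocked calls, with 1 receptor gene higher and 2 lower. The difference between regions then had 2680 genes higher, or 52.3% of its calls, and 4 receptor genes lower. The exonic columns beside the introns had 3572 genes higher, or 50.2% of their calls, with 1 receptor gene higher and 2 lower. The block gave 12 higher and 2 lower group I partners in exons, and the same numbers in introns. Of group II and III partners it gave 18 higher and 4 lower in exons, and 13 higher and 6 lower in introns. Of scaffolds it gave 12 higher and 3 lower in introns. In the difference between regions it gave 6 higher and 8 lower scaffolds against 2 and 5, 3 higher and 9 lower group I partners against 1 and 5, and 6 lower group II and III partners against 3. The receptor calls it changed were those of Grm4 and Grm7 in exons, Grm5 in introns, and Grm4, Grm5 and Grm8 in the difference.

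Exonic plus intronic counts gave 1 receptor gene higher and 0 scaffolds lower, with Grm3 at -0.34 and Grm7 at 0.15. Scaled to both regions, introns had 1622 genes higher, 1 receptor gene higher and 3 scaffolds lower. With 1 scaling for both regions the difference had 5822 genes higher and 406 lower, with a median of 0.26 over all genes, and Grm4 stood at 0.039 and Grm5 at 0.10. Beyond what each scaling fixes by its construction, the cause was not tested.

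Leaving out 1 sample at a time, receptor genes called in exons numbered 0 to 1 higher and 1 to 2 lower, and lower ones 1 to 2 in introns, 1 to 2 in the difference and 1 to 2 in exons of the second table. Lower partners numbered 0 to 1 (scaffolds), 1 to 2 (group I) and 2 to 4 (groups II and III) in exons, and 1 to 2 for both scaffolds and group I in introns. Exonic values ran from -0.018 to 0.16 for Grm5 and from -0.058 to 0.13 for Grm8, and in the second table from -0.0057 to 0.25 for Grm3, -0.046 to 0.12 for Grm5 and -0.088 to 0.084 for Grm8. Grm3 and Grm8 had the fewest exonic counts of the receptor genes, at 266 to 584 per library. How far depth rather than spread between samples limits their values was not tested.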
